A study of Rattus norvegicus with 18 samples.

Results

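The genes described here are those of glycolysis, of glycogen breakdown and synthesis, and of glucose and lactate transport across the muscle membrane. They were taken as a list of 37 gene symbols, and each gene was followed through the probe set that carried its symbol alone and had the highest mean log2 signal. A probe set is a group of short probes on the array whose brightness is summarized as 1 signal. Some genes had several such probe sets, as Pfkfb3 with 3, Hk1 with 5 and Pgk1 with 3. The values of their other probe sets are not given here. On this array 35 of the 37 genes had such a probe set, of 14218 genes with 1 symbol in all. The probe set of Pkm, the pyruvate kinase of muscle, carries a pseudogene symbol as well and was not used, and no probe set was matched to Ppp1r3c, a glycogen-targeting subunit of protein phosphatase, which was not analysed here. Of the 35 genes, 32 were tested, having a signal of 400 or more on some array of the 18. The others were Pfkl and Pfkp, the liver and platelet phosphofructokinases, with highest signals of 209 and 399, and Pfkfb2, with a highest signal of 176. Just inside the minimum were Pygl, with a highest signal of 409, and Slc2a1, with 477.

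The arrays held RNA of diaphragm (DIA), of extensor digitorum longus (EDL), a fast hind limb muscle, and of the rectus extraocular muscles (EOM), which move the eye. Female Lewis rats, 6 to 8 weeks old at the start, received 1 injection of 40 µg of acetylcholine receptor from the Torpedo electric organ in complete Freund's adjuvant with added killed mycobacteria, which leads to experimental autoimmune myasthenia gravis (EAMG), and control rats received the adjuvant and mycobacteria without receptor. Muscles were taken at week 6, and each of the 6 groups of muscle and treatment had 3 arrays, each of pooled RNA from several rats (3 per the sample labels and 4 to 5 per the methods). The tests therefore compare pools, in rats that all carried the adjuvant response. In whole-muscle RNA fewer fibres of a type and less RNA per fibre cannot be told apart.

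Muscle takes up glucose through Glut4 and Glut1, phosphorylates it with hexokinase, and splits it in the steps of glycolysis to pyruvate, which lactate dehydrogenase can turn into lactate. Glycogen phosphorylase releases glucose phosphate from the glycogen store when phosphorylase kinase switches it on, and glycogen synthase rebuilds that store. Fast fibres depend on this pathway for brief strong contractions, whereas slow fibres rely more on oxidation, and many steps have one isozyme typical of adult muscle and another of other tissues.

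Some arrays stood apart and touch the values below. The summed signal of 10 slow fibre genes was 312011 on EDL EAMG array 2, against 96158 to 116845 on the other EDL arrays. GAPDH signal at the 3' end over that at the 5' end, a sign of RNA quality, was 2.66 on DIA EAMG array 3 and 1.06 to 1.33 elsewhere. Mean signals of the poly-A control transcripts added to the RNA were 750 on DIA EAMG array 2 and 521 on EOM EAMG array 2, against 10096 to 24458 elsewhere. The median signal of an array was 129 to 163. The EOM labels matched their markers, since the 4 genes of extraocular myosins summed to 52886 to 78426 on EOM arrays and to at most 2411 on the others. The DIA and EDL labels were not checked in this way. The slow fibre sum of EDL EAMG array 2 lay above those of all DIA arrays, 220700 to 271183.

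In DIA, Pfkfb3 rose and Ldha fell in EAMG, and these were the 2 of 32 members that passed (6.25%, against 2.68% of all 12241 probe sets tested, 1.53% higher and 1.15% lower). Passing means an adjusted p under 0.05 in a linear model (limma) of the log2 signals over all probe sets. Pfkfb3 is the inducible enzyme that makes fructose 2,6-bisphosphate, the strongest allosteric activator of phosphofructokinase, and Ldha is the lactate dehydrogenase subunit that prevails in fast muscle. Promoter windows were sought for the members that passed in a single muscle. Printed here are those of these 2 genes, which moved in opposite directions. Each is the 250 bases before the start of the gene in RefSeq (build GRCr8): chr17:71944683-71944932 on the plus strand for Pfkfb3 and chr1:106507842-106508091 on the plus strand for Ldha. Capitals mark CACGTG, the E-box, and any ACGTG, the core of the hypoxia response element, on either strand. CACGTG reads the same on both strands and holds an ACGTG on each, so the motifs overlap.
Pfkfb3: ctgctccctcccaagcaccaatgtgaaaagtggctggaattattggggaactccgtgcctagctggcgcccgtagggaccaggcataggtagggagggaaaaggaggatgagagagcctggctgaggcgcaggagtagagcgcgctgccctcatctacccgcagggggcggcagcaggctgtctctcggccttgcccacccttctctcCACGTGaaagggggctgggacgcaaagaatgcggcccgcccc
Ldha: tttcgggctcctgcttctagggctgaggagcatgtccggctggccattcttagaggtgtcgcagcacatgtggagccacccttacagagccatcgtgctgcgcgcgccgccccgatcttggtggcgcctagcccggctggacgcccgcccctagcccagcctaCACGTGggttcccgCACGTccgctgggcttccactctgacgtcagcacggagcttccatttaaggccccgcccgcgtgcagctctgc
The letters of CACGTG were thus in both windows. Gpi, which passed in EDL as given below, had a window at chr1:95993262-95993511 on the minus strand that held neither motif and is not printed. Over the 32 members with a usable probe set and a window of this kind, 17 held ACGTG (53.1%) and 4 held CACGTG (12.5%), against 21.9% and 8.2% of the 11734 genes on the array with a window. The 4 were Gyg1, Ldha, Pfkfb3 and Slc16a1. A match of letters is a description of the window and does not show that a factor binds there. No window was matched for Fbp2, Slc2a4 or Pgk1.

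The Pfkfb3 signal in DIA was 325, 631 and 800 on control arrays 1 to 3 and 1802, 2454 and 2605 on EAMG arrays 1 to 3. Every EAMG array lay above every control array. The change was 2.04 ± 0.42 on the log2 scale (limma, SE, 3 arrays against 3, 4.13-fold, adjusted p = 0.0212). Ldha read 19622, 19680 and 19788 on the DIA control arrays, a narrow band, and 15094, 10836 and 13897 on the EAMG arrays, all of them lower. It fell by 0.58 ± 0.13 on the log2 scale (adjusted p = 0.0297). Its partner Ldhb, the subunit that prevails in heart and slow fibres, had a DIA change of -0.13 with an interval from -0.62 to 0.36 (adjusted p = 0.791).

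Next to these 2 genes, Fbp2 had the largest DIA change among the tested genes of fructose phosphate control. Fbp2 encodes the muscle fructose bisphosphatase, which runs the phosphofructokinase step backward. Its signals were 1065, 885 and 899 on control arrays and 609, 681 and 586 on EAMG arrays, a change of -0.60 ± 0.18 that did not pass (adjusted p = 0.0835, or 0.0198 without EDL EAMG array 1). The 3 members whose EAMG arrays lay above all controls, beside Pfkfb3, were Aldoc, Gbe1 and Ugp2, and with Pfkfb3 they made 4 of 32 against 13.3% of all probe sets. Below all controls lay 11 of 32 (against 11.1%), which were Gpi, Aldoa, Gapdh, Pgk1, Pgam2, Eno3, Ldha, Fbp2, Phka1, Phkg1 and Pgm1.

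With any 1 DIA array left out the Ldha change was -0.44 to -0.68 and that of Pfkfb3 1.67 to 2.32, but the calls did not always hold. The Ldha call was lost without DIA control array 1, 2 or 3 (adjusted p = 0.104, 0.0687 and 0.0856) or DIA EAMG array 2 or 3 (0.157 and 0.0641), and that of Pfkfb3 without DIA control array 1 (0.0990) or DIA EAMG array 2 or 3 (0.0936 and 0.0667). Summed signals of fibre markers also moved in DIA: those of 11 fast fibre genes were 243732 to 257319 on EAMG and 289796 to 305837 on control arrays (1 of 11 passed, lower), those of 10 slow fibre genes were 220700 to 254983 and 255543 to 271183 (0 of 10 passed), and those of 12 macrophage genes were 11843 to 16222 and 7658 to 11174 (0 of 10 tested passed). Those of 6 red blood cell genes were 2315 to 5528 on EAMG and 13510 to 20206 on control arrays (3 of 3 tested passed, lower). Their part in the member changes was not tested.

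In EDL, Fbp2 and Gpi fell in EAMG and no member rose, so that 2 of 32 members passed (6.25%), close to the 6.58% of all probe sets (3.37% higher and 3.22% lower). Fbp2 read 3848, 3867 and 4018 on the control arrays, in a tight band, and 2803, 1506 and 1787 on the EAMG arrays, which were all lower. It fell by 1.00 ± 0.18 on the log2 scale (1.99-fold, adjusted p = 0.00706). Without EDL EAMG array 2, the array with the high slow fibre sum, it fell by 0.80 (adjusted p = 0.0318), and it passed with any 1 of the 18 arrays left out.

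Gpi, the isomerase that converts glucose 6-phosphate to fructose 6-phosphate, read 25426, 23518 and 23107 on the EDL control arrays and 20652, 13407 and 17547 on the EAMG arrays. The EAMG arrays were again all lower, and array 2 was the lowest. Its fall was 1.42-fold (log2 change -0.50 ± 0.14, adjusted p = 0.0483), and the call was kept in 3 of 18 fits with an array left out, those without EDL EAMG array 1 or EOM EAMG array 1 or 3, and was weakest without EDL EAMG array 2 (-0.33, adjusted p = 0.179). Slc16a3, the transporter that exports lactate from fast fibres, read 12414, 12507 and 13954 on control arrays and 10844, 5828 and 7436 on EAMG arrays. All EAMG arrays were lower, yet the change of -0.73 ± 0.23 did not pass (adjusted p = 0.0691), and it did without EDL EAMG array 1 (-0.97, adjusted p = 0.0158). Phka1, the alpha subunit of muscle phosphorylase kinase, read 8828, 8179 and 9604 on control and 7193, 5641 and 6822 on EAMG arrays, without overlap (-0.44 ± 0.14, adjusted p = 0.0684, under 0.05 without EDL EAMG array 1 or EOM EAMG array 2 or 3). Red blood cell genes summed to 1443 to 2970 on EDL EAMG and 3909 to 5777 on EDL control arrays (1 of 3 tested passed, lower). Sums of 10 slow fibre genes were 105225 to 312011 on EAMG and 96158 to 116845 on control arrays (1 of 10 passed, higher). The slow fibre sum was highest on EAMG array 2. Those of 11 fast fibre genes were 397005 to 425117 and 418958 to 526544 (0 of 11 passed). Those of 6 adipocyte genes were 10984 to 15628 and 9284 to 10606 (1 of 5 tested passed, higher, and 3 were below 0). The part of these markers in the member changes was not tested.

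Pfkfb3 split the EDL EAMG arrays. Its signals were 1889, 1746 and 1563 on control arrays and 1533, 4624 and 4723 on EAMG arrays, so that EAMG array 1 was at the control level and the other two were far above it. The change was 0.90 ± 0.42 (adjusted p = 0.205), and it was 1.44 without EDL EAMG array 1 (adjusted p = 0.0228). Ldhb was at 8416 and 10497 on EDL EAMG arrays 1 and 3, near the controls at 9658, 11482 and 9727, but at 20069 on array 2. Among all members, 10 of 32 had every EDL EAMG array below every control array (against 12.4% of all probe sets) and 1 of 32 had them above (against 12.6%). The latter was Slc2a4, the insulin-responsive transporter Glut4, with 9868, 11221 and 11468 on control and 13530, 12736 and 11642 on EAMG arrays (0.22 ± 0.11, adjusted p = 0.261).

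**Figure D1:**
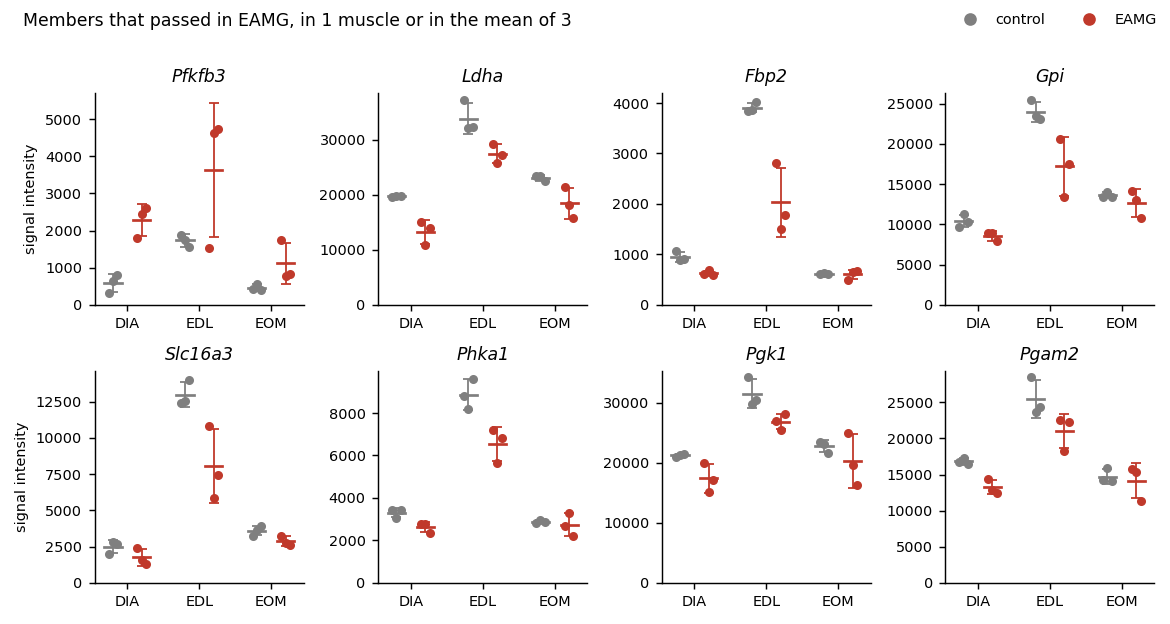
Signal intensity (linear axis from 0) of the 8 members that passed in EAMG in a muscle or in the mean of 3 muscles, by muscle and treatment; points are arrays 1 to 3, bars the mean and SD. Pfkfb3 sits higher on all 3 EAMG arrays in DIA and EOM but on 2 of 3 in EDL, and Ldha sits lower on all EAMG arrays of each muscle.

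In EOM, 0 of 32 members passed in limma, against 1.49% of all probe sets (0.964% higher and 0.531% lower). At an unadjusted p under 0.05 there were 3, Pfkfb3 higher and Ldha and Gyg1 lower, against 13.1% of all, and 0 passed with an intensity trend and robust variances. Pfkfb3 read 419, 561 and 403 on control and 1741, 775 and 830 on EAMG arrays. All EAMG arrays were higher, array 1 by far the most (1.19 ± 0.42, interval 0.30 to 2.08, adjusted p = 0.207). Ldha read 23385, 23395 and 22414 on control and 21369, 18156 and 15734 on EAMG arrays, again without overlap (-0.34 ± 0.13, interval -0.62 to -0.06, adjusted p = 0.267).

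Fbp2 in EOM was at 615, 621 and 620 on control and 497, 651 and 662 on EAMG arrays, and these overlapped (-0.05 ± 0.18, interval -0.43 to 0.33). Slc16a3 was at 3240, 3651 and 3885 on control and 3232, 2772 and 2589 on EAMG arrays, the latter all lower (-0.33 ± 0.23, adjusted p = 0.593). Gpi was at 13450, 14035 and 13421 on control arrays, inside the span of 14136, 13030 and 10738 on EAMG arrays. In all, 3 of 32 members had EAMG arrays above every control array (Aldoc, Pfkfb3 and Pygb, against 12.5% of probe sets) and 5 had them below (Slc16a1, Slc16a3, Ldha, Gbe1 and Gyg1, against 11.9%). EOM EAMG array 3 also had the lowest summed signal of 6 skeletal muscle genes, 125313 against 158085 to 212289 on the other EOM arrays. Summed signals of 6 red blood cell genes were 2267 to 3813 on EOM EAMG and 9046 to 12646 on EOM control arrays (3 of 3 tested passed, lower), and those of 10 orbital lipid gland genes were 13877 to 15624 and 7045 to 9090 (1 of 8 tested passed, higher). The part of these values in the member changes was not tested.

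Averaged over the 3 muscles, 8 of 32 members passed (25%, against 20.4% of all probe sets): Pfkfb3 rose, and Ldha, Fbp2, Slc16a3, Gpi, Phka1, Pgam2 and Pgk1 fell. The shares per direction were 10.5% higher and 9.93% lower among all probe sets. The log2 changes were 1.38 ± 0.24 for Pfkfb3 (adjusted p = 0.00147), -0.41 ± 0.08 for Ldha (0.00219) and -0.55 ± 0.10 for Fbp2 (0.00238). Those of Slc16a3, Gpi and Phka1 were -0.53 ± 0.13, -0.30 ± 0.08 and -0.29 ± 0.08 (adjusted p = 0.0121, 0.0194 and 0.0202).

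The 2 weakest calls were in lower glycolysis, the steps after the sugar is split. Pgam2, the muscle phosphoglycerate mutase, changed by -0.23 ± 0.08 (adjusted p = 0.0436), and Pgk1, phosphoglycerate kinase, which makes the first ATP of the pathway, by -0.24 ± 0.08 (adjusted p = 0.0484). They passed in 6 and 2 of the 18 fits with 1 array left out, with adjusted p up to 0.0877 for Pgam2 without EDL control array 1 and up to 0.0988 for Pgk1 without DIA EAMG array 2, whereas the other 6 genes passed in all 18. In DIA, Pgk1 read 21049, 21375 and 21496 on control and 20020, 15185 and 17101 on EAMG arrays, and Pgam2 read 16744, 17335 and 16431 and 14362, 12899 and 12489. Both were lower on every EAMG array of DIA. In EDL, Pgk1 read 34324, 29870 and 30432 on control and 27010, 25532 and 28127 on EAMG arrays, and Pgam2 read 28476, 23671 and 24362 and 22542, 18267 and 22232, again without overlap. In EOM the groups overlapped for both: Pgk1 read 23540, 23111 and 21656 and then 25062, 19570 and 16228, and Pgam2 read 14228, 15885 and 14075 and then 15716, 15386 and 11395. Phka1 also overlapped in EOM, with 2804, 2966 and 2866 on control and 2686, 3288 and 2220 on EAMG arrays, but not in DIA, with 3421, 3052 and 3432 against 2780, 2747 and 2364.

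The remaining values of the 8 genes were those of Ldha in EDL and of Gpi and Slc16a3 in DIA. In EDL, Ldha read 37090, 32123 and 32211 on control and 29167, 25728 and 27282 on EAMG arrays. These were all lower, but the log2 change of -0.30 did not pass. In DIA, Gpi read 9672, 11234 and 10318 on control and 8875, 8957 and 7876 on EAMG arrays, all lower (-0.28 ± 0.14, adjusted p = 0.290). Slc16a3 read 1972, 2829 and 2699 on control and 2422, 1538 and 1324 on EAMG arrays, which overlapped (-0.54 ± 0.23, adjusted p = 0.211). Without DIA EAMG array 1 the change was -0.79 (adjusted p = 0.0474). Muscles of one rat may lie behind several arrays, and when the 3 muscles of one treatment and replicate number were averaged before the fit (3 columns against 3), 2 members passed, Pfkfb3 (adjusted p = 0.00989) and Fbp2 (0.0166), against 6.05% of all probe sets. Ldha then had an adjusted p of 0.0598 and the other 5 genes 0.100 to 0.187.

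Outside these 8 genes no member passed in EAMG. Aldoc came nearest, with a mean change over muscles of 0.43 ± 0.15 (adjusted p = 0.0601) that passed without EDL control array 3 (0.50, adjusted p = 0.0328) or EDL EAMG array 1 (0.53, adjusted p = 0.0122). All 6 tested members of lower glycolysis were below 0 in each muscle, with medians of -0.16, -0.15 and -0.18 in DIA, EDL and EOM, while in single muscles 0 of 6 passed. Gapdh, the dehydrogenase often used as a loading control, had a DIA change of -0.17 (interval -0.50 to 0.16), an EDL change of -0.11 (-0.45 to 0.22) and an EOM change of -0.19 (-0.52 to 0.14). The Gapdh probe set followed here is the array's own 3' control, which also enters the RNA quality ratio given above. Of the 5 members of glycogen breakdown, 5, 5 and 4 were below 0 in DIA, EDL and EOM, with Pygl among the 5 only because DIA control array 2 (409) reached the signal minimum. The 5 tested members of glycogen synthesis had medians of 0.04, 0.02 and -0.19, and Gys1, muscle glycogen synthase, changed by 0.02, 0.14 and -0.19. The 4 transporters did not pass in any single muscle.

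For DIA, EDL and EOM the median log2 changes over all 32 members were -0.14, -0.11 and -0.13, with 23, 22 and 27 of them below 0, against medians of 0.01, -0.003 and 0.001 over all probe sets. Abundant transcripts shared this lean: among the 233 probe sets with a mean signal over 15000, which include 12 members, the medians were -0.12, -0.07 and -0.13 over all and -0.16, -0.13 and -0.16 over the members. With quantile normalization the medians of the 32 members were -0.08, -0.06 and -0.07.

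**Figure D2:**
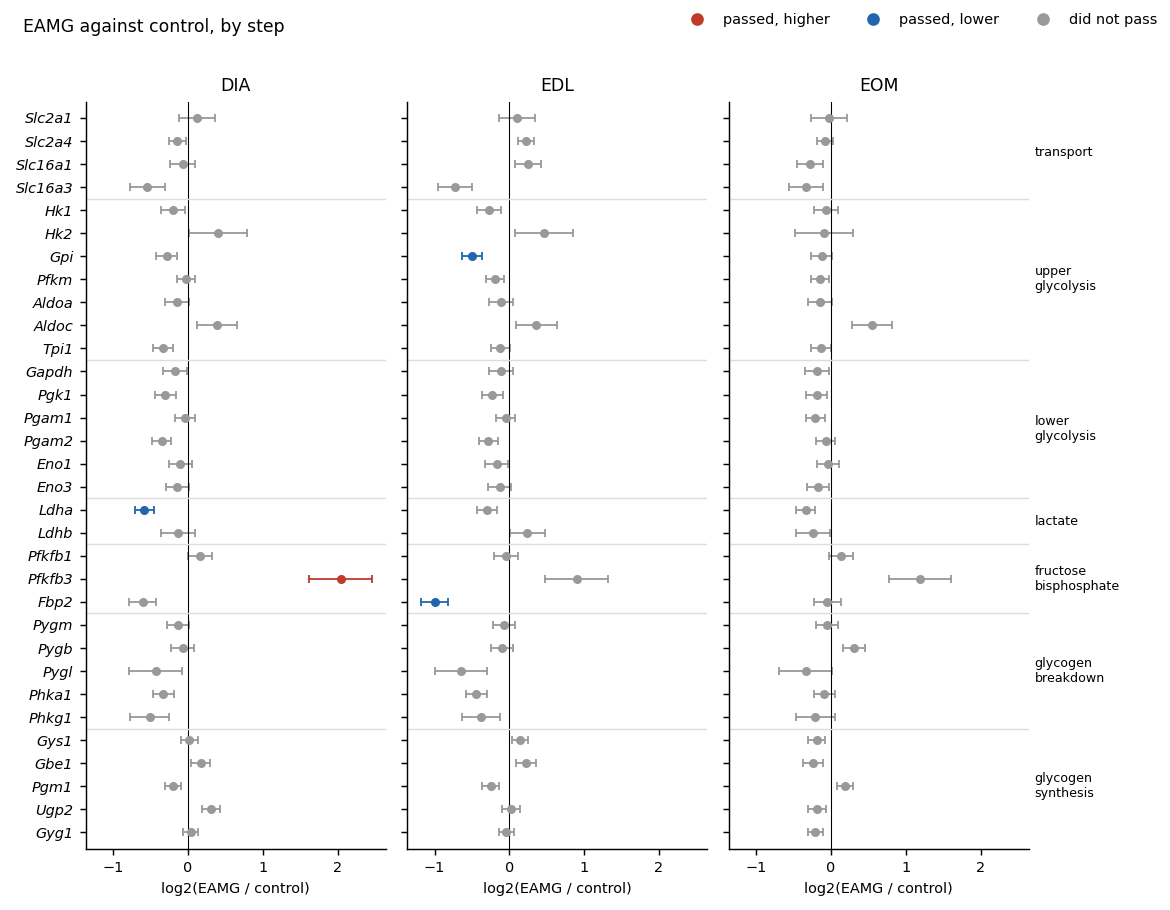
Log2 ratio of EAMG to control signal (points) with its SE (bars) for the 32 tested members in DIA, EDL and EOM, grouped by step; coloured points passed at an adjusted p under 0.05. Most points lie near 0, with Pfkfb3 far to the right in DIA and Fbp2 to the left in EDL.

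The 3 muscles were also compared in their change. No member passed for a difference in change between 2 muscles (0 of 32 for each pair in limma). Of all probe sets 0.0163% passed for EDL against DIA, 0.106% for EDL against EOM and 0.0163% for EOM against DIA. With so few calls among all probe sets, the lack of a call does not show that the changes were equal. At an unadjusted p under 0.05 there were 1, 4 and 4 members (against 5.31%, 10.1% and 6.49% of all), and 0 passed for each pair with an intensity trend and robust variances. The difference that came nearest was that of Fbp2, whose fall in EDL minus its EOM change was -0.95 on the log2 scale (interval -1.49 to -0.41, adjusted p = 0.189). Without EDL EAMG array 1 that difference was -1.20 (adjusted p = 0.0117), the sole such call with an array left out. For Pfkfb3 the change in EDL minus that in DIA was -1.14 (interval -2.40 to 0.11).

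The control arrays alone show how the pathway differs between these muscles in rats given adjuvant. Against DIA, 17 members were higher and 4 lower in EDL (21 of 32, 65.6%, against 24.8% of all probe sets, 10.8% higher and 14.1% lower). Against EOM, 16 were higher and 9 lower in EDL (25 of 32, 78.1%, against 41.4%, 18.3% higher and 23.1% lower), and EOM differed from DIA in 12 of 32, with 7 higher and 5 lower (37.5%, against 21.3%, 10.6% higher and 10.7% lower). The 3 comparisons share control arrays. Higher in EDL than in both other muscles were 16 members: Slc16a3, Gpi, Pfkm, Tpi1, Pgk1, Pgam2, Eno3, Ldha, Pfkfb1, Pfkfb3, Fbp2, Pygm, Phka1, Phkg1, Pgm1 and Gyg1. Among them are the muscle forms Pfkm, Pgam2, Eno3, Fbp2 and Pygm, and Phka1 and Phkg1 of the kinase that turns on phosphorylase. No difference between control muscles passed for Aldoa, Gapdh, Gys1, Pygl and Slc2a4. On the same arrays the sums of 11 fast fibre genes were 418958 to 526544 for EDL, 289796 to 305837 for DIA and 305688 to 329919 for EOM (5 and 4 of 11 higher in EDL than in DIA and EOM). Slow fibre sums were 96158 to 116845 for EDL, 255543 to 271183 for DIA and 112379 to 118607 for EOM (10 and 2 of 10 lower in EDL). Skeletal muscle sums were 209731 to 256379 for EDL, 181022 to 192257 for DIA and 166419 to 181150 for EOM (1 and 3 of 6 higher in EDL). The part of these markers in the member differences was not tested. Higher in EOM than in both others were 6 members, Slc2a1, Hk1, Aldoc, Pgam1, Eno1 and Gbe1. Of these, Slc2a1 and Aldoc reached the signal minimum on EOM arrays only, so that a high EOM signal decided that they were tested. The counts for pairs with EOM, on control and on EAMG arrays, include both genes and are to that extent set by the minimum.

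The largest EDL excesses were in fructose phosphate control and lactate export. The Fbp2 control signals given above, 3848 to 4018 in EDL, compare with 885 to 1065 in DIA and 615 to 621 in EOM, and differed by 2.05 ± 0.18 from DIA and 2.66 ± 0.18 from EOM (adjusted p = 3.15e-06 and 5.40e-08). Slc16a3 was 5.24-fold higher in EDL than in DIA (log2 difference 2.39 ± 0.23, adjusted p = 8.13e-06) and 3.61-fold higher than in EOM. Pfkfb3 exceeded DIA by 1.66 ± 0.42 and EOM by 1.92 ± 0.42 (adjusted p = 0.00959 and 0.00179). Without DIA control array 1 its difference from DIA was 1.28 (adjusted p = 0.0511). Pfkfb1, another maker of fructose 2,6-bisphosphate, read 4222, 4010 and 4071 in EDL, 2791, 2530 and 2433 in DIA and 1126, 977 and 969 in EOM, 3 bands that did not overlap. EDL exceeded EOM 4.01-fold (adjusted p = 3.64e-07), and EOM was 2.53-fold below DIA (adjusted p = 2.82e-05).

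Lactate handling ran the other way for its slow-muscle members. Ldhb read 30889, 29303 and 28868 in DIA and 27345, 28171 and 25943 in EOM, and its EDL values, 9658 to 11482, lay far below both (log2 differences -1.53 ± 0.23 and -1.40 ± 0.23). Ldha differed in the opposite sense, 1.71-fold higher in EDL than in DIA and 1.46-fold higher than in EOM. Slc16a1, the transporter for lactate uptake in oxidative fibres, read 4764, 3971 and 4853 on the DIA arrays, 1629, 1830 and 2663 on those of EDL and 1715, 1861 and 1863 on those of EOM. DIA was thus high, with log2 differences of -1.18 ± 0.17 for EDL and -1.32 ± 0.17 for EOM (adjusted p = 1.90e-04 and 4.52e-05), and EDL and EOM differed by 0.14 (interval -0.22 to 0.50).

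The hexokinase, aldolase, enolase and mutase steps set EOM apart. Hk1, the hexokinase of brain and most tissues, read 1270, 1227 and 1286 in EOM, against 450, 532 and 332 in DIA and 352, 313 and 314 in EDL. EOM was 2.93-fold above DIA and 3.87-fold above EDL (adjusted p = 6.96e-06 and 4.76e-07). Aldoc, the aldolase of brain, read 691, 570 and 640 in EOM, 295, 214 and 243 in DIA and 91, 182 and 197 in EDL. The EOM values were above all others, 2.54-fold over DIA and 4.25-fold over EDL (adjusted p = 0.00197 and 2.23e-05). Eno1, the enolase of most tissues, read 14025, 14244 and 14633 in EOM, 4267, 4069 and 4239 in DIA and 3425, 3672 and 4121 in EDL. EOM was 3.41-fold above DIA and 3.83-fold above EDL (adjusted p = 8.80e-07 and 2.63e-07). Pgam1, the mutase of brain and other tissues, was 1.80-fold above DIA and 2.65-fold above EDL. Slc2a1, the transporter Glut1, was 1.76-fold above DIA and 1.83-fold above EDL (adjusted p = 0.0215 and 0.00849). But Slc2a1 and Aldoc reached the signal minimum of 400 on EOM arrays only, so that EOM decided whether they were tested. For Slc2a1 and Aldoc the signals describe a higher EOM level, and the adjusted p values are not independent evidence of it. Summed signals of other cells' markers moved with this set: those of 6 Schwann cell genes were 16483 to 19724 in control EOM and 3553 to 7997 in control EDL and DIA, with 5 of 5 tested higher in EOM than in EDL and 4 of 5 higher than in DIA. Those of 12 macrophage genes were 7619 to 15763 and 2030 to 4528 in EOM and EDL, with 10 of 10 tested higher, but 7658 to 11174 in DIA, with 0 of 10 passing between EOM and DIA. Their part in the EOM values was not tested.

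Of the muscle counterparts, Hk2, the hexokinase of muscle and fat, was also lower in EDL than in EOM, with 147, 179 and 356 on the EDL arrays, 412, 532 and 577 on those of EOM and 356, 247 and 405 on those of DIA (log2 difference of EDL from EOM -1.25 ± 0.39, 2.38-fold, adjusted p = 0.0193). EOM and DIA differed by 0.61 for Hk2 (adjusted p = 0.315). Aldoa and Gapdh did not differ by the test between any 2 control muscles, although EDL exceeded DIA by 0.38 (interval 0.04 to 0.72) and 0.39 (0.06 to 0.72). On EAMG arrays Gapdh did pass between EDL and EOM. Pgam2 was 1.51-fold and Eno3 1.42-fold higher in EDL than in DIA (adjusted p = 0.00482 and 0.0201). Among glycogen genes, Phka1 was 2.68-fold and 3.08-fold higher in EDL than in DIA and EOM, and Pygm, the muscle phosphorylase, 1.39-fold and 1.43-fold. Pygb, the brain phosphorylase, read 617, 603 and 685 in EOM, 537, 635 and 594 in DIA and 320, 374 and 259 in EDL. EDL was lowest, with log2 differences of -0.90 ± 0.15 from DIA and -1.01 ± 0.15 from EOM (adjusted p = 8.00e-04 and 1.06e-04). Gyg1, the primer protein glycogenin, read 21806, 19902 and 19498 in EDL, 17122, 16118 and 16241 in DIA and 10266, 10512 and 10655 in EOM, so that EOM was the lowest (1.57-fold below DIA, adjusted p = 2.26e-04). Gbe1, the branching enzyme, was in contrast 1.56-fold higher in EOM than in DIA and 1.93-fold higher than in EDL. Levels are compared within a probe set only, not between genes.

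**Figure D3:**
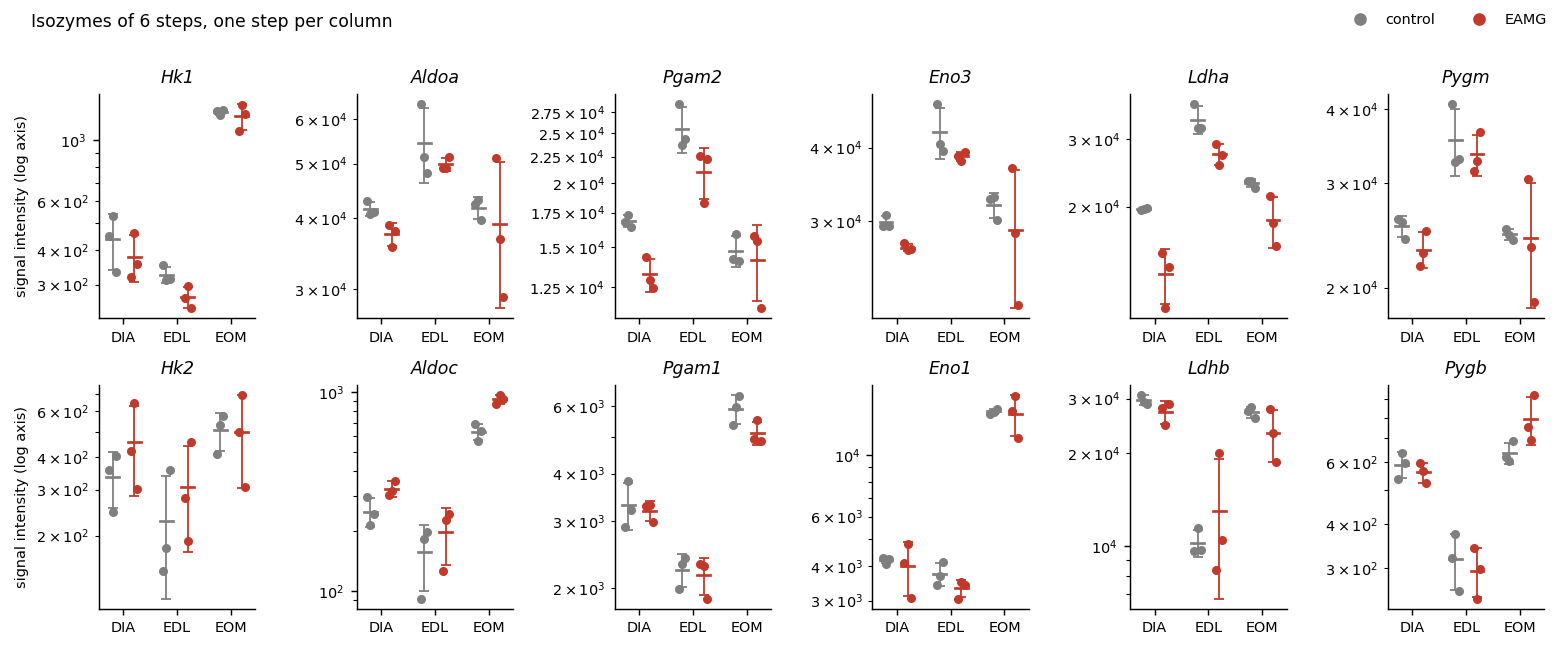
Signal intensity (log axis, scaled per panel) for the isozymes of 6 steps, with one step per column and the 2 isozymes above each other, in 6 groups of muscle and treatment; points are arrays, bars the mean and SD. Hk1, Aldoc, Pgam1 and Eno1 are highest in EOM, Ldha is highest in EDL, and Ldhb and Pygb are lowest in EDL.

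On the EAMG arrays 20, 28 and 12 members differed for the pairs EDL and DIA, EDL and EOM, and EOM and DIA (against 22.4%, 46.1% and 27.6% of all probe sets). Of the members that differed on control arrays, 18, 24 and 8 also differed on EAMG arrays in the same direction and 0 in the opposite one. Pfkfb3 was among the 3 that no longer passed between EDL and DIA, with Pfkfb1 and Gyg1. Passing on EAMG arrays only were Aldoc and Pygl between EDL and DIA, and Slc2a4, Slc16a1, Gapdh and Gys1 between EDL and EOM. Between EOM and DIA they were Slc16a3, Gpi, Ldha and Pygb. Pygl was tested only because a DIA control array reached the signal minimum. The EAMG count for EDL and DIA is to that extent also set by the minimum. Quantile normalization gave 20, 21 and 13 differences between control muscles, with 15, 12 and 8 higher, and lowered the median member difference of EDL from DIA from 0.43 to 0.20 and from EOM from 0.39 to 0.08. The split for EDL against EOM then read 12 higher and 9 lower, in place of 16 and 9.

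**Figure D4:**
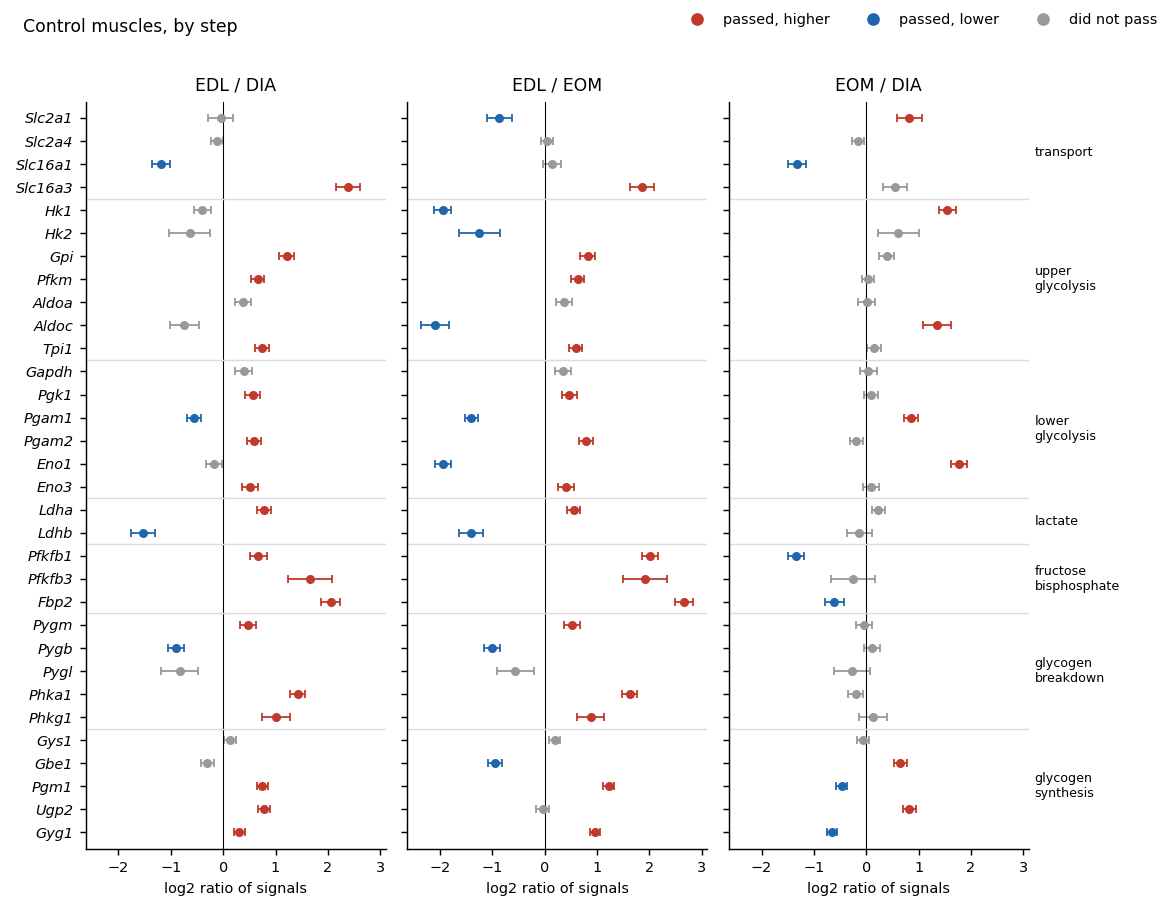
Log2 ratio of control signals (points) with its SE (bars) for the 32 tested members in each pair of muscles, grouped by step; coloured points passed at an adjusted p under 0.05. The EDL panels have Slc16a3, Pfkfb3 and Fbp2 far to the right and Ldhb to the left, and Hk1, Aldoc and Eno1 are far to the left in EDL / EOM and to the right in EOM / DIA.

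A further 54 genes that feed, drain or regulate the pathway were listed, of which 43 had a probe set and 31 were tested. Unlike those of the members, their calls were not refitted with an array left out or under other settings. In EAMG, DIA had 1 that rose and 2 that fell (against 2.68% of all probe sets), EDL had 2 of each (against 6.58%), and EOM had 1 that rose (against 1.49%). Txnip, which curbs glucose uptake, rose in DIA, EDL and EOM, with log2 changes of 0.91 ± 0.13, 0.56 ± 0.13 and 0.77 ± 0.13 (adjusted p = 0.00325, 0.0248 and 0.00930). Gpd1, the glycerol phosphate dehydrogenase that draws on triose phosphate, fell by 0.81 ± 0.17 in DIA and 0.61 ± 0.17 in EDL (adjusted p = 0.0236 and 0.0457). Slc16a7, a pyruvate and lactate transporter, fell by 1.09 ± 0.27 in DIA (adjusted p = 0.0472). In EDL, Stbd1, a glycogen-binding protein, fell by 0.92 ± 0.20 (adjusted p = 0.0169), and H6pd, the hexose phosphate dehydrogenase of the endoplasmic reticulum, rose by 0.87 ± 0.21 (adjusted p = 0.0265).

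In the mean of the 3 muscles, 3 of these 31 genes rose and 6 fell, against 10.5% higher and 9.93% lower among all probe sets. Txnip, H6pd and Eno2, the neuronal enolase, rose by 0.75, 0.69 and 0.33 on the log2 scale. Gpd1 fell by 0.49, and the subunits of the mitochondrial pyruvate carrier, Mpc1 and Mpc2, fell by 0.40 and 0.31 (adjusted p = 0.00195 and 0.0111). Prkaa2, a catalytic subunit of AMP-activated kinase, fell by 0.94, Dyrk2, a protein kinase, by 0.72, and Phkb, the beta subunit of phosphorylase kinase, by 0.33 (adjusted p = 0.0117, 8.82e-04 and 0.0121).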

How the data were processed

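The authors scanned the arrays, summarized perfect-match and mismatch probes with GCOS 2.0 into signal intensity values on a linear scale, scaled every array to 1 target, and deposited these values. All 18 arrays had a mean of 500 after trimming 2% of the values from each end. Scan-level files were not used here, and an array's number of probe sets at 400 or more (27.9% to 31.1%) served as a measure of detection.

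Signals of 31048 probe sets (array controls without a gene symbol left out) were taken to log2, and 12241 with a signal of 400 on at least 1 array, the minimum of the methods, were tested with limma 3.58.1 under R 4.3.3 (lmFit and eBayes, 1 mean per group, all 18 arrays). P values were adjusted by Benjamini and Hochberg over these 12241. Intervals are 95% intervals of limma. A gene was named by the platform annotation, where 20832 probe sets carry 1 symbol, 436 several and 9780 none. Given in full were members that passed in an EAMG comparison and, between control muscles, the 3 largest differences that passed in each direction. Values of further members were chosen after they were seen. The members and lists were chosen with earlier results of these data known. The number of arrays limits the precision: with 3 against 3 an exact permutation test cannot go below 0.1, and p values measure the spread between pools. The script was tested on simulated data. Figures used matplotlib 3.10.9 under python 3.11.15.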

Additional observations from a re-analysis of the deposited data

How the results depend on the processing

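The DIA count of 2 members became 0 with no signal minimum, without the pair of arrays low in poly-A signal, without DIA EAMG array 3 and EDL EAMG array 2 together, and with DIA fitted alone, and 1 (Pfkfb3) by a rule on ratios alone (at least 2-fold in 7 of 9 pairs of arrays), since the change calls of the methods are not part of these values. The EDL count of 2 became 1 with no minimum or without those 2 arrays, 4 with an intensity trend and robust variances, and 0 with EDL fitted alone or by the rule on ratios. The count of 8 in the mean of 3 muscles became 3, 5 and 2 with no minimum, without those 2 arrays together and with muscles averaged. Leaving out those 2 arrays together and averaging muscles were chosen after seeing the data. With 1 array left out in turn, the counts for DIA, EDL, EOM and the mean were 0 to 4, 1 to 5, 0 to 0 and 6 to 10, and 17 to 23, 21 to 27 and 10 to 13 between control muscles (EDL and DIA, EDL and EOM, EOM and DIA), with 0 to 1 for differences of change. Deviations of same-numbered control and EAMG arrays correlated at 0.18, 0.15 and -0.03 for DIA, 0.19, 0.15 and 0.34 for EDL, and 0.17, 0.19 and -0.01 for EOM, over 0.1 in 7 of 9 pairs and in every pair of EDL alone. The labels do not tie the numbers to a batch. With a replicate block the counts were 2, 2, 0 and 9 in DIA, EDL, EOM and the mean, 22, 25 and 12 between control muscles and 0 for differences of change. No named change turned its direction where it was called. Of 324 alternatives to the 12 EAMG changes that passed, 244 passed in the same direction and 80 did not pass, and of 468 to the 18 named differences between control muscles 467 passed. Those 18 were picked as the largest that passed in these same data, so that most would pass again was nearly given. For a comparison of 2 groups, leaving out an array of another group keeps the estimate and alters only its spread. The tallies are therefore no measure of stability. The causes were not tested.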
